A study of Mus musculus with 5 samples.

Results

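Protein kinase C (PKC) isoforms are serine/threonine kinases that pass on signals from receptors coupled to phospholipase C. The enzyme splits a membrane lipid into inositol trisphosphate, which releases Ca2+, and diacylglycerol, which stays in the membrane. Conventional isoforms (Prkca, Prkcb) need both Ca2+ and diacylglycerol, another group (Prkcd, Prkce, Prkch, Prkcq) needs diacylglycerol alone, and atypical isoforms (Prkci, Prkcz) respond to neither and work in polarity complexes. In the central amygdala (CeA), Prkcd, which encodes PKCδ, is the customary marker of a population of inhibitory neurons of the lateral subdivision that has been tied to the suppression of feeding and to aversion. The 8 genes Prkca, Prkcb, Prkcd, Prkce, Prkch, Prkcq, Prkci and Prkcz were chosen by name among the 22532 genes counted.

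CeA nuclei were sequenced from mice that had eaten freely (fed, 3 libraries) or had been deprived of food (fasted, 2 libraries), and every library pooled the tissue of 1 male and 1 female. Fed replicates 1 and 2 and both fasted replicates came from mice labelled C57BL6 (C57BL/6NRj in the study's methods) aged 8 weeks. Fed replicate 3 came from Htr2a-Cre mice aged 12 weeks that carried the virus AAV-DIO-mCherry, in which Cre is made under the control of the serotonin receptor gene Htr2a and switches on mCherry. Fasting lasted 20 hours in replicate 1 and 21 hours in replicate 2. By the study's account, the fed and fasted libraries that it numbers 1 were prepared in the same batch. Those it numbers 2 shared another batch, and a further fed library had a batch of its own. Its numbers were taken to be the replicate numbers used here, which the study does not state. That this further library is fed replicate 3 was inferred by elimination, and fed replicate 3 also differs in genotype and age.

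Nuclei with 500 to 8000 genes and less than 0.8% mitochondrial UMIs (unique molecular identifiers, 1 for each captured RNA molecule) were kept, 7161 of 23839 barcodes. The kept nuclei numbered 1151, 1130 and 1438 in the fed libraries and 1708 and 1734 in the fasted libraries, always in the order of their replicate numbers. Depth differed with the batch, the median being 8326 and 6608 UMIs per nucleus in replicates 1 and 13813.5 to 16367 in the other libraries. Libraries shared at most 1 barcode in any pair. Of the kept nuclei, 5071 were inhibitory by at least 2 UMIs of Gad1 and Gad2. They were sorted into classes by raw UMIs of 1 marker gene: Pde1c (at least 15), Rarb (5), Foxp2 (8), Dnah5 (3), Calcrl (2), Sst (3), Tac1 (3), Vdr (2), Dlk1 (2) and Nkx2-1 (1, with at least 3 of Sox6 and Lhx6). The study used the first 3 of these for nuclei of neighbouring regions. Inhibitory nuclei that passed no gate are called ungated (2313), and those that passed several were kept out of the classes. No gate was set for the study's PKCδ, Il1Rapl2 and Drd2/Rai14 clusters, so their nuclei were not told apart here. Of markers checked for the PKCδ cluster, Tmcc3, Rreb1 and Sox5 took places 4, 5 and 8 in ungated nuclei. Il1rapl2 and Sdk1, checked for the Il1Rapl2 cluster, took place 3 there, Tafa1 place 4 and Brinp3 place 5. The share of inhibitory nuclei in several gates was 8.03% and 5.62% in the shallow replicates 1 and 16.0 to 21.3% in the others, and depth and batch cannot be told apart in this. No gate used a PKC gene. Among markers outside the gates, Nts, Tac2 and Vipr2 ranked first in the Dnah5 class and Tox second, and Ebf1, Sema6d and Trpc5 ranked first in the Sst class and Erbb4 in place 5. Slc1a2, Gpc5 and Ntsr2 were highest in astrocytes. In the Calcrl class Cdh9, Penk and Prkd1 ranked second among the classes, and Drd2 came after 2 other classes. In the nuclei gated as excitatory, Neurod6 was highest of all classes (18.4 CPM, a unit defined below) and Slc17a8 was at 0, so that class is named by its gate only.

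The isoform genes differ widely in length, and reads in introns were counted, so a longer gene offers more places to prime a read. On GRCm39, Prkce lies on chromosome 17 (86474992 to 86965429, plus strand, 490.4 kb), Prkca on chromosome 11 (107824212 to 108235099, minus strand, 410.9 kb) and Prkcb on chromosome 7 (121887974 to 122233625, plus strand, 345.7 kb). Prkch spans 194.0 kb on chromosome 12 (73631009 to 73824959, plus strand), Prkcq 129.1 kb on chromosome 2 (11176911 to 11306043, plus strand) and Prkcz 101.3 kb on chromosome 4 (155344575 to 155445909, minus strand). Prkci spans 57.2 kb on chromosome 3 (31049886 to 31107108, plus strand). Prkcd is the shortest, with 31.9 kb on chromosome 14 (30317307 to 30349238, minus strand), and 64.5% of it is intron against 98.4% of Prkce. No member overlapped another counted gene on its own strand. Levels are given as CPM, a gene's share of all UMIs in the summed nuclei of a class and library, scaled to a common total so that libraries of unequal depth can be set side by side. Isoforms are ranked both by CPM or share of UMIs, which are not corrected for length, and after division by the gene's length in kb. The division takes capture to grow in proportion to the whole gene, which was not tested. By exon alone Prkcd is longer than Prkce (11.35 against 7.95 kb), so orders per kb depend on this choice.

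Over all inhibitory neurons, Prkce was the most captured isoform with 1325 ± 164 (SD, n = 5) CPM over the 5 libraries. Prkcb followed with 703 ± 93.1 (SD, n = 5), Prkca with 241 ± 12.5 (SD, n = 5) and Prkcz with 214 ± 27.8 (SD, n = 5). Prkcd stood at 84.3 ± 17.2 (SD, n = 5), Prkch at 60.1 ± 10.3 (SD, n = 5) and Prkci at 29.5 ± 2.55 (SD, n = 5), and Prkcq was near the floor with 3.87 ± 0.524 (SD, n = 5). Per kb of gene this order changed. Prkce (2.702 ± 0.335 CPM per kb) and Prkcd (2.64 ± 0.539) were then level within their SD, ahead of Prkcz (2.11 ± 0.274) and Prkcb (2.03 ± 0.269). Prkca (0.588 ± 0.0305), Prkci (0.516 ± 0.0446) and Prkch (0.310 ± 0.0531) came after them, and Prkcq (0.0300 ± 0.00406) stayed last.

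Across classes the isoforms did not vary alike: 3 diacylglycerol-only isoforms (Prkcd, Prkch, Prkcq) marked particular classes, the conventional pair was graded, and Prkce and the atypical pair were nearly even among neurons. For 10 classes with at least 10 nuclei in at least 4 libraries, UMIs were summed per class and library and tested with edgeR's quasi-likelihood test, with the library as a block and Benjamini-Hochberg adjustment over 9781 genes. Each neuronal class was set against the mean of the other 7 inhibitory classes, and each glial class against the mean of all 8. These means weight the classes equally on the log scale, so a class near 0 pulls them down. All adjusted p-values below are of this kind unless another test is named, and an isoform is called higher or lower at an adjusted p under 0.05. The unit is the library, and 5 libraries of 2 mice each limit the precision.

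Prkca, a conventional isoform that moves to the membrane when Ca2+ rises, was highest in the Pde1c class, at 490.4, 293 and 546 in the fed libraries and 550.4 and 466 in the fasted libraries (log2 fold change 1.25 ± 0.15 (SE), adjusted p = 4.38e-09). The Dnah5 class came next, with 305, 417 and 434 in the fed libraries and 448 and 300.4 in the fasted libraries (log2 fold change 0.77 ± 0.14 (SE), adjusted p = 3.55e-05). At the other end stood Dlk1 nuclei, in which the 4 libraries with enough nuclei gave 49.2, 96.7, 108 and 128 (log2 fold change -1.34 ± 0.21 (SE), adjusted p = 3.81e-06). Every Dlk1 library was therefore below every library of the Rarb class, the next lowest at 156 ± 16.5 (SD, n = 5) (log2 fold change -0.63 ± 0.15 (SE), adjusted p = 0.00313). The other neighbours in the order Pde1c, Dnah5, astrocyte, Sst, Foxp2, oligodendrocyte, ungated, Calcrl and Rarb had overlapping ranges. Astrocytes exceeded the inhibitory mean (log2 fold change 0.53 ± 0.16 (SE), adjusted p = 0.0038), but not in the fed libraries alone (0.18, adjusted p = 0.482) nor without fasted replicate 1 (0.39, adjusted p = 0.0536).

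Prkcb, the other conventional isoform, was also highest in Pde1c nuclei, at 1222, 892 and 1235 in the fed libraries and 1306 and 967 in the fasted libraries (log2 fold change 0.87 ± 0.11 (SE), adjusted p = 8.03e-09). Rarb nuclei followed with 1168, 664 and 863 in the fed libraries and 1246 and 818 in the fasted libraries (log2 fold change 0.52 ± 0.10 (SE), adjusted p = 0.000235). Within the Rarb class both replicates 1, the shallow batch, lay above the other 3 libraries, and the part of depth or batch in this was not tested. Prkcb was lower in the Dlk1 (log2 fold change -0.54 ± 0.13 (SE), adjusted p = 0.00322) and ungated (log2 fold change -0.43 ± 0.11 (SE), adjusted p = 0.00496) classes. In Foxp2 nuclei it was 563 ± 56.9 (SD, n = 5) CPM (log2 fold change -0.37 ± 0.12 (SE), adjusted p = 0.0226), a call lost without fed replicate 1, fed replicate 3 or fasted replicate 2 (adjusted p 0.0681 to 0.0842). Glia held much less: astrocytes 142 ± 56.5 (SD, n = 5) and oligodendrocytes 339.9 ± 129 (SD, n = 5), with log2 fold changes of -2.33 ± 0.15 and -1.33 ± 0.16 (SE; adjusted p = 3.18e-19 and 5.78e-10).

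**Figure D1:**
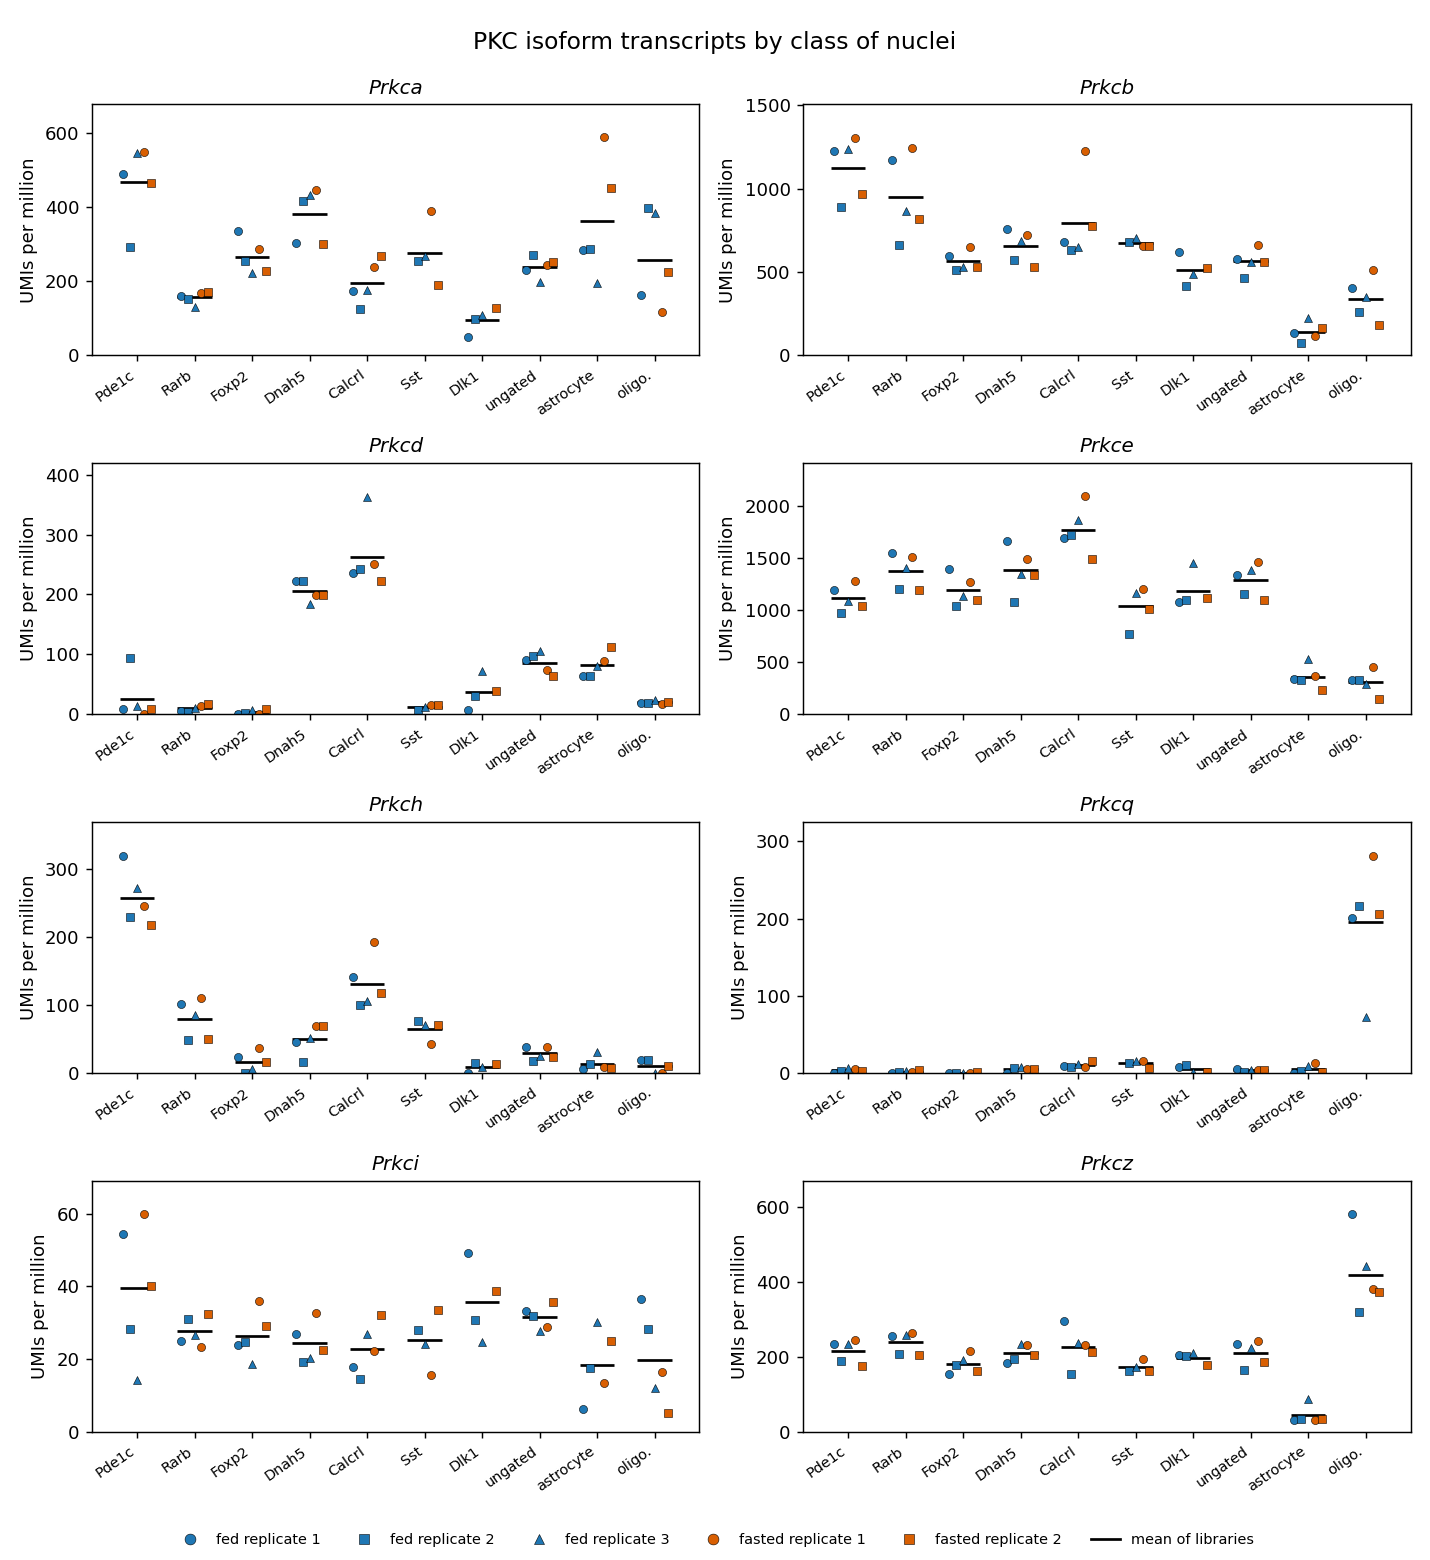
CPM of each PKC isoform gene (linear axes starting at 0, 1 panel per gene with its own scale) in 10 classes of nuclei; each point is a library with at least 10 nuclei of the class, blue for fed and orange for fasted, and the bar is the mean of the points. Prkcd stood at 183 to 363 in the Dnah5 and Calcrl classes and at most 16.7 in the Rarb and Foxp2 classes, Prkch peaked in the Pde1c class and Prkcq in oligodendrocytes, whereas Prkce and Prkcz were nearly even across the inhibitory classes.

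Prkcd had a steep gradient among neurons. Calcrl nuclei, which express the receptor subunit for calcitonin gene-related peptide, held 236, 242 and 363 in the fed libraries and 251 and 223 in the fasted libraries. Dnah5 nuclei, the class with the highest Nts and Tac2, held 223, 223 and 183 in the fed libraries and 199.7 and 199 in the fasted libraries. The study describes a PKCδ cluster apart from its NTS/Tac2 cluster, and no gate here separated them. The ranges of these leading classes overlapped, and every library of either lay above every library of any other class in the test. Both were higher than the other inhibitory classes, with log2 fold change 3.22 ± 0.18 (SE), adjusted p = 1.98e-19 for Calcrl and log2 fold change 2.81 ± 0.19 (SE), adjusted p = 4.22e-17 for Dnah5. Per kb of gene, Prkcd in Calcrl nuclei reached 8.23 ± 1.78 CPM, above Prkce in the same nuclei (3.61 ± 0.458).

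Ungated neurons, the class with the most nuclei, held 90.4, 96.9 and 104.9 in the fed libraries and 74.1 and 62.9 in the fasted libraries (log2 fold change 1.33 ± 0.18 (SE), adjusted p = 4.54e-07). Their range overlapped that of all inhibitory neurons together (63.6 to 107). The difference is therefore from the log-scale mean of the classes alone, which classes near 0 pull down. With all gates doubled, when 6 classes remained, this difference turned to -0.14 (adjusted p = 0.607). The mean it was set against then held the Calcrl, Dnah5 and Rarb classes alone. The Pde1c, Foxp2, Sst and Dlk1 classes had left it, so the folds are not against the same mean. Prkcd was lowest in Foxp2 nuclei, where 16 UMIs were found among 2813124 and the libraries gave 0, 1.54 and 6.70 in the fed libraries and 0 and 8.57 in the fasted libraries (fitted log2 fold change -3.09 ± 0.48 (SE)). It was likewise low in Rarb nuclei, at 4.76, 3.39 and 10.7 in the fed libraries and 14.1 and 16.7 in the fasted libraries (fitted log2 fold change -1.962 ± 0.30 (SE)), and in Sst nuclei, at 12.2 ± 4.05 (SD, n = 4) (fitted log2 fold change -1.85 ± 0.46 (SE)). For these low values, the passing of the filter on low counts may rest on other classes. Their folds are therefore a description, without a test. In the Pde1c class 1 library stood apart, fed replicate 2 with 94.4 against 0 to 14.2 in the other 4, and the class did not pass the test (log2 fold change -0.58 ± 0.36 (SE), adjusted p = 0.354).

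Read nucleus by nucleus at an equal depth of 4000 UMIs, Prkcd was seen in 42.9% of 252 nuclei (exact 95% interval 36.7 to 49.2%) of the Calcrl class and in 37.4% of 297 nuclei (exact 95% interval 31.9 to 43.1%) of the Dnah5 class. The shares were 16.0% of 2194 nuclei (exact 95% interval 14.4 to 17.6%) in ungated neurons, 3.48% of 661 nuclei (exact 95% interval 2.22 to 5.18%) in the Rarb class and 2.05% of 195 nuclei (exact 95% interval 0.562 to 5.17%) in the Foxp2 class. As a reference for RNA that drifts between droplets, 1 of 51 excitatory nuclei had a Prkcd UMI (1.961%, exact 95% interval 0.0496 to 10.4%). This interval is wide, and the shares in the Rarb, Foxp2, Sst (5.15%), Pde1c (4.09%) and Dlk1 (9.34%) classes all lie within it. Excitatory nuclei were gated with at most 1 UMI of Gad1 and Gad2. Nuclei that took up more RNA of inhibitory neurons were thus left out, and their share may be low as a reference. The part of drifting RNA in the classes named was not tested. Intervals cover counting error only. Median UMIs per nucleus ran from 15224 to 26697 over libraries in the excitatory nuclei and from 8599 to 18926 in the Calcrl class before thinning.

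Calcrl nuclei were not uniform in Prkcd. The nuclei that passed the Calcrl gate and 1 other gate were looked at after the class values were known and are described without a test. When the second gate was Rarb (162 nuclei), Prkcd was 60.2, 27.0 and 27.7 in the fed libraries and 26.0 and 6.33 in the fasted libraries, below every library of the Calcrl class. When the second gate was Dnah5 (70 nuclei), Prkcd was 540.1, 408 and 569 in the fed libraries and 1013 and 550.4 in the fasted libraries, above every library of the Calcrl and Dnah5 classes. The last of these rests on few nuclei, since fasted replicate 1 had 2 of them. At 4000 UMIs, 8.02% of the 162 Calcrl and Rarb nuclei had a Prkcd UMI (exact 95% interval 4.34 to 13.3%), against 72.9% of the 70 Calcrl and Dnah5 nuclei (60.9 to 82.8%). The former share lies within the interval of the excitatory nuclei.

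Drd2, the dopamine D2 receptor gene, went the other way: it was 115, 257 and 229 in the fed libraries and 282 and 199.97 in the fasted libraries in nuclei of both the Rarb and Calcrl gates and 44.6, 18.1 and 41.4 in the fed libraries and 46.7 and 58.0 in the fasted libraries in Calcrl nuclei. In the Rarb class it was 261, 132 and 184 in the fed libraries and 258 and 142 in the fasted libraries, a range that overlapped that of the nuclei of both gates. Prkcb was 1239, 1274 and 1147 in the fed libraries and 1637 and 1377 in the fasted libraries where Rarb and Calcrl were both present, above the Rarb class and the Calcrl class in every library. Prkch was 152 ± 15.5 (SD, n = 5) there and 131 ± 37.3 (SD, n = 5) in Calcrl nuclei, and the ranges overlapped. Nuclei in several gates were more frequent in the deeper libraries, and the part of droplets with 2 nuclei in these values was not tested. Their median depth per library was 9162 to 22963.5 UMIs for Calcrl and Rarb and 10365.5 to 21352 for Calcrl and Dnah5, against 8599 to 18926 for Calcrl.

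**Figure D2:**
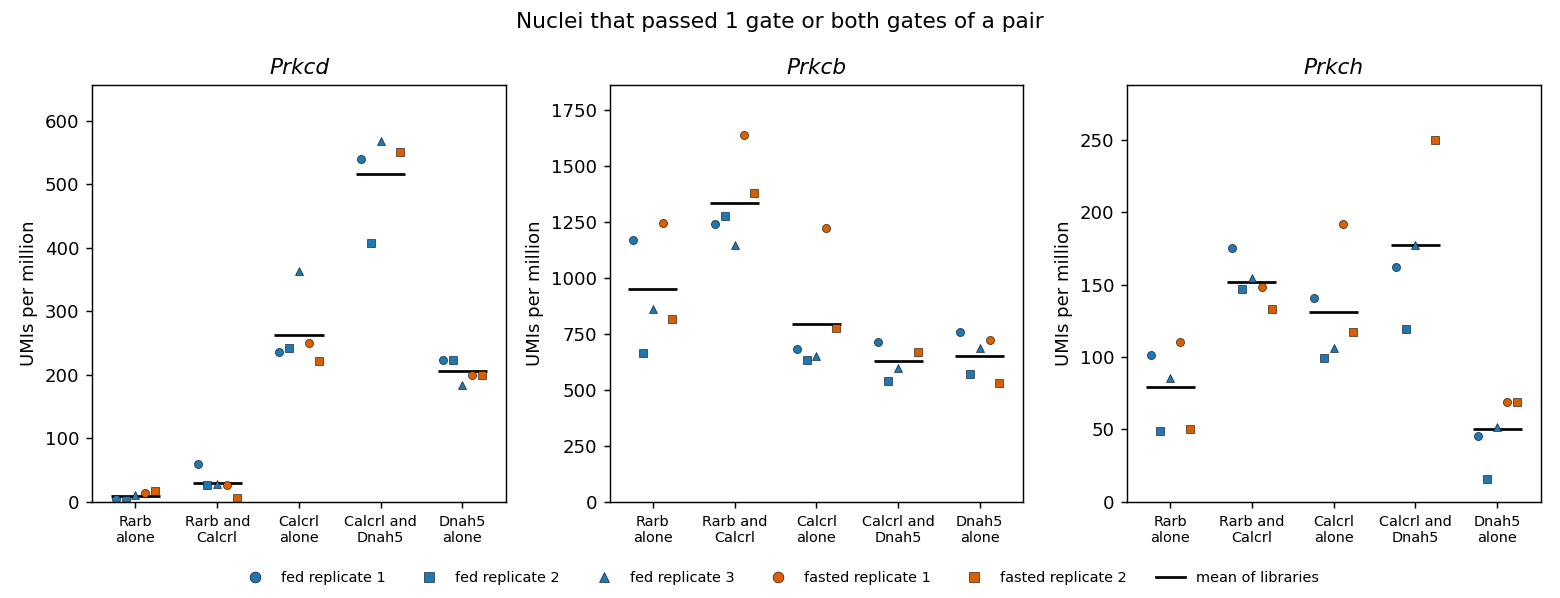
CPM (linear axes from 0) of Prkcd, Prkcb and Prkch in nuclei that passed the Rarb, Calcrl or Dnah5 gate alone or both gates of a pair; points are libraries with at least 10 such nuclei and bars their means, so that fasted replicate 1, with 2 nuclei of Calcrl and Dnah5, is not drawn there. Among nuclei that passed the Calcrl gate, Prkcd ran from at most 60.2 with Rarb to at least 408 with Dnah5, and Prkcb was highest with Rarb.

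Prkce, a diacylglycerol-activated isoform found widely in brain, was the most even of its group. It stood between 1034 and 1770.0 CPM on average in the 8 inhibitory classes. Calcrl was the class on top, with 1689, 1717 and 1866 in the fed libraries and 2091 and 1487 in the fasted libraries (log2 fold change 0.52 ± 0.09 (SE), adjusted p = 2.7e-05). Sst nuclei were lowest, at 1034 ± 195 (SD, n = 4) (log2 fold change -0.36 ± 0.11 (SE), adjusted p = 0.0381), a call that was lost without each of the 5 libraries in turn (adjusted p 0.0547 to 0.334). Between these ends the ranges of neighbouring classes overlapped. Both glial classes lay below every neuronal library, astrocytes at 358 ± 108 (SD, n = 5) and oligodendrocytes at 306 ± 109 (SD, n = 5) (log2 fold changes -1.91 ± 0.12 and -2.28 ± 0.14, SE; adjusted p = 1.40e-19 and 2.30e-19).

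Prkch, which encodes PKCη, was sharply higher in Pde1c nuclei, with 319, 229 and 272 in the fed libraries and 245 and 218 in the fasted libraries (log2 fold change 2.81 ± 0.16 (SE), adjusted p = 1.05e-19). Every Pde1c library lay above every library of every other class. Calcrl nuclei were second with 141, 99.3 and 106 in the fed libraries and 192 and 118 in the fasted libraries (log2 fold change 1.496 ± 0.17 (SE), adjusted p = 1.03e-09), and Rarb nuclei came after them with 101, 48.6 and 85.6 in the fed libraries and 111 and 50.3 in the fasted libraries (log2 fold change 0.72 ± 0.16 (SE), adjusted p = 0.00092). The classes at the low end were Dlk1 with 9.09 ± 6.39 (SD, n = 4) (fitted log2 fold change -2.22 ± 0.32 (SE)) and Foxp2 with 16.3 ± 14.4 (SD, n = 5) (fitted log2 fold change -2.42 ± 0.33 (SE)). They held only 42 and 30 Prkch UMIs, and the passing of the filter on low counts may rest on other classes. Both folds are therefore a description, without a test. Ungated neurons held 28.5 ± 9.15 (SD, n = 5) (log2 fold change -1.07 ± 0.17 (SE), adjusted p = 4.75e-06). The oligodendrocyte class held 9.45 ± 9.26 (SD, n = 5), with a fitted log2 fold change of -2.15 ± 0.62 (SE), or -1.59 in the fed libraries alone. This is likewise a description, without a test.

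Prkcq, which encodes PKCθ and is best known from T cells, was rare in neurons and high in oligodendrocytes, the myelin-forming glia. Oligodendrocytes held 200.3, 216 and 71.9 in the fed libraries and 281 and 205 in the fasted libraries, and 120 UMIs came from 158 nuclei against 307 from all 5071 inhibitory nuclei (fitted log2 fold change 5.59). At 4000 UMIs it was seen in 43.8% of 48 oligodendrocytes (exact 95% interval 29.5 to 58.8%) and in 1.54% of 4927 inhibitory nuclei (1.22 to 1.93%). Its counts in neurons were so low that its passing of the filter on low counts may rest on oligodendrocytes alone, and its differences between classes are therefore given as a description, without a test. Sst nuclei held 12.5 ± 4.27 (SD, n = 4). Calcrl nuclei held 8.93, 7.22 and 10.8 in the fed libraries and 7.37 and 14.9 in the fasted libraries from 44 UMIs. The fitted log2 fold change of 1.77 turned to -0.91 with doubled gates, when fewer classes were left to compare with. Foxp2 nuclei yielded 1 Prkcq UMI in all 198 nuclei.

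The atypical isoforms varied little among neurons. Prkci, which encodes PKCι of the cell polarity complex, was the only member with no call in any of the 10 classes, and its class means ran from 18.5 in astrocytes to 39.4 in the Pde1c class with overlapping ranges between all neighbours. Prkcz, whose locus also gives rise to the brain transcript PKMζ, a form linked to the upkeep of synaptic strength, was 239 ± 28.9 (SD, n = 5) in Rarb nuclei (log2 fold change 0.29 ± 0.08 (SE), adjusted p = 0.0127). This small rise was not called without fed replicate 1 (adjusted p = 0.0553) or fasted replicate 2 (0.0738), nor with library totals alone in place of TMM scaling (0.0596). Its largest values were in glia: oligodendrocytes held 583, 319 and 444 in the fed libraries and 381 and 375 in the fasted libraries, all above every library of every other class (log2 fold change 0.83 ± 0.12 (SE), adjusted p = 4.62e-08). Astrocytes held 31.8, 32.8 and 87.7 in the fed libraries and 31.0 and 33.3 in the fasted libraries, all below every neuronal library (log2 fold change -2.25 ± 0.15 (SE), adjusted p = 5.84e-19). UMIs at the 3′ end do not separate the full-length transcript from PKMζ.

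**Figure D3:**
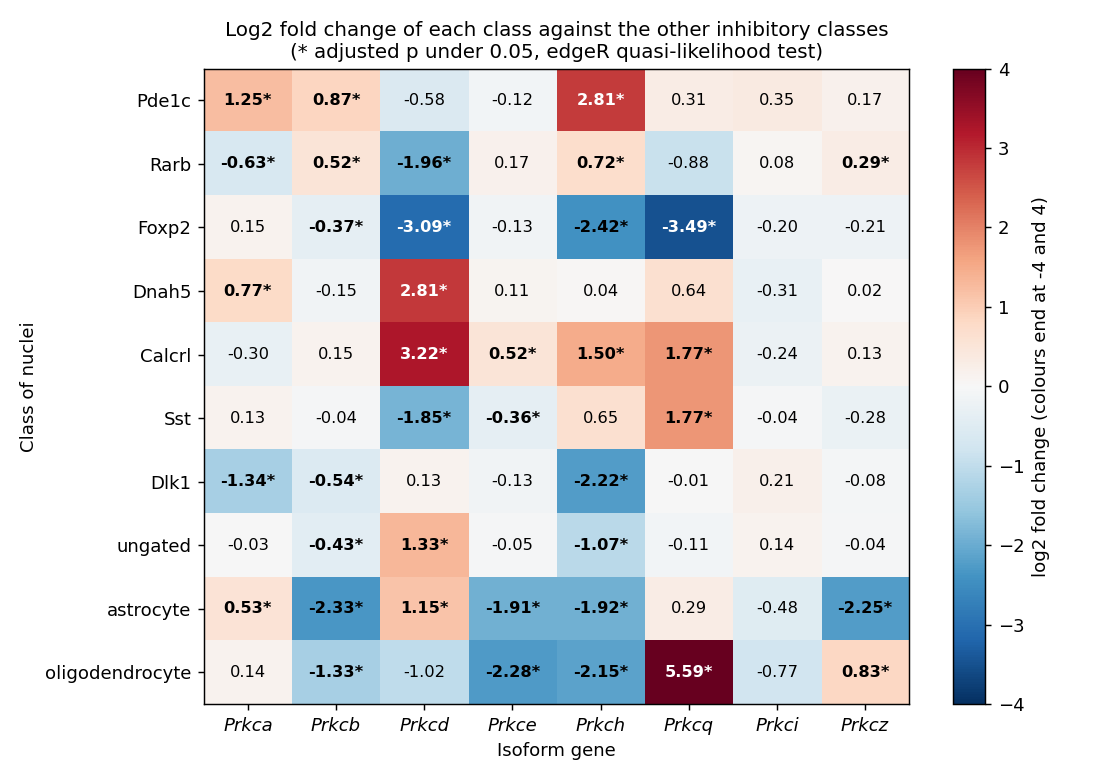
Log2 fold change of each isoform gene (columns) in each class of nuclei (rows) against the mean of the other inhibitory classes, with red for higher and blue for lower; an asterisk marks an adjusted p under 0.05 in edgeR's quasi-likelihood test on 5 libraries. The reddest cells are Prkcq in oligodendrocytes (5.59), Prkcd in the Calcrl class (3.22) and Prkch and Prkcd in the Pde1c and Dnah5 classes (2.81 each), Prkci has no asterisk, the value of Prkcq in the Foxp2 class rests on 1 UMI, and the asterisks of Prkcq are a description only. So are those of Prkcd in the Foxp2, Rarb and Sst classes and of Prkch in the Dlk1, Foxp2 and glial classes.

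In all, 38 of the 80 pairs of a member and a class were called. All 8 members passed the filter on low counts. The counts include Prkcq in the Calcrl, Sst, Foxp2 and oligodendrocyte classes, which is a description only. The same holds for Prkcd in the Foxp2, Rarb and Sst classes and for Prkch in the Dlk1, Foxp2 and glial classes. The Calcrl class had 4 members higher and 0 lower, against 15.9% of all genes called in that class. Pde1c had 3 higher (13.5% of all genes), Dnah5 2 higher (17.2%) and Rarb 3 higher and 2 lower (10.8%). Foxp2 had 4 lower (16.7%), Dlk1 3 lower (9.71%), Sst 1 higher and 2 lower (7.48%) and the ungated class 1 higher and 2 lower (11.9%). The member higher in the ungated class was Prkcd, set against a log-scale mean that classes near 0 pull down. In glia, where much of the transcriptome was called, astrocytes had 2 higher and 4 lower (59.4% of all genes) and oligodendrocytes 2 higher and 3 lower (42.6%). The median log2 fold change over all genes was between -0.02 and 0.02 in all classes other than oligodendrocytes (-0.12).

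Astrocytes showed a Prkcd level near that of ungated neurons, with 63.6, 63.0 and 79.5 in the fed libraries and 88.7 and 112 in the fasted libraries (log2 fold change 1.15 ± 0.28 (SE), adjusted p = 0.000418). Their range overlapped that of all inhibitory neurons together (63.6 to 107), so the difference is from the log-scale mean of the classes alone. With doubled gates the difference was -0.18 (adjusted p = 0.467), against a mean of the Calcrl, Dnah5, Rarb and ungated classes alone. Prkcd was 19.6 ± 2.83 (SD, n = 5) in oligodendrocytes, and oligodendrocyte precursors had none in 35 nuclei (0 of 29 at 4000 UMIs, which allows a share of up to 10.3%). Of 189 astrocytes with at least 4000 UMIs, 25.4% had a Prkcd UMI after thinning (exact 95% interval 19.4 to 32.2%), and 1.961% of excitatory nuclei did. Before thinning, library medians were 2337 to 4441 UMIs in astrocytes and 15224 to 26697 in excitatory nuclei. This reference thus comes from much deeper nuclei, and the part of RNA that drifts between droplets in astrocytes was not tested. Classes with fewer nuclei were not tested. Microglia (68 nuclei) had 80 Prkcd UMIs and 261, 447 and 361 in the fed libraries and 199 and 309 in the fasted libraries, and 70.4% of the 27 that reached 4000 UMIs had one (49.8 to 86.2%). Microglia were shallow as well, with library medians of 2345 to 4265.5 UMIs, and the same limit holds for them. Oligodendrocyte precursors had 64 Prkcq UMIs, seen in 69.0% of 29 nuclei (49.2 to 84.7%), which put them beside oligodendrocytes. In Nkx2-1 nuclei (62), a class of interneurons, Prkch was at 0 in 4 libraries and at 1.63 in fasted replicate 2. Vdr nuclei (41) had 6 Prkcd UMIs and Tac1 nuclei (20) had 2.

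To see which isoforms accompany Prkcd, neurons with at least 2 Prkcd UMIs among at least 4000 in all (Prkcd-positive, 766 nuclei) were set against neurons with none (Prkcd-negative, 3737), library by library. Of the positive neurons, 337 were ungated (44.8 ± 6.71% per library, SD, n = 5), 128 were in the Dnah5 class (16.3 ± 4.08%) and 124 in the Calcrl class (16.0 ± 1.70%). A further 124 passed several gates. Only 13 were in the Rarb class, 7 in Pde1c, 6 in Sst and 2 in Foxp2. Positive neurons were somewhat deeper, with library medians of 8168 to 21662 UMIs against 7484 to 17983. Prkcd itself chose the groups, so its own difference is no finding.

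The Prkcd-positive neurons carried a mix of isoforms. Prkce contributed 50.9 ± 1.57% of the PKC UMIs in them, Prkcb 18.9 ± 2.38%, Prkcd 12.9 ± 1.101%, Prkca 7.56 ± 0.51% and Prkcz 6.16 ± 0.61% (SD, n = 5). Prkch gave 2.77 ± 0.47%, Prkci 0.76 ± 0.12% and Prkcq 0.0259 ± 0.0232%. Per kb of gene, however, Prkcd was the leading isoform of these neurons by the rule that chose them, at 14.3 ± 2.06 CPM per kb, ahead of Prkce at 3.64 ± 0.312. Of the other 7 isoforms a positive neuron showed 3.28 ± 0.17 on average after thinning, and a negative neuron 3.14 ± 0.12.

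Prkce was 1963, 1633 and 1857 in the fed libraries and 1862 and 1619 in the fasted libraries in Prkcd-positive neurons and 1318, 1043 and 1284 in the fed libraries and 1419 and 1047 in the fasted libraries in Prkcd-negative neurons. It was higher in the positive neurons in every library (log2 fold change 0.55 ± 0.05 (SE), adjusted p = 2.67e-07). Prkch was 128, 75.3 and 85.1 in the fed libraries and 96.1 and 102 in the fasted libraries in positive neurons and 46.5, 38.7 and 61.1 in the fed libraries and 64.6 and 48.3 in the fasted libraries in negative ones, again higher in every library (log2 fold change 0.90 ± 0.11 (SE), adjusted p = 6.52e-06). Both kept their call when positives were named after thinning to 4000 UMIs (0.51 and 0.81, adjusted p = 4.25e-06 and 0.000118) and within ungated neurons alone (0.66 and 1.63, adjusted p = 3.42e-08 and 6.55e-08). Prkcq gave 14 UMIs in 766 positive neurons and 251 in 3737 negative ones (fitted log2 fold change -2.10, and -0.80 when positives were named after thinning), which is given without a test since its passing of the filter on low counts may rest on the negative neurons alone.

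Prkca was 276, 225 and 254 in the fed libraries and 306 and 266 in the fasted libraries in positive neurons and 222, 234 and 224 in the fed libraries and 241 and 231 in the fasted libraries in negative neurons, with a small difference (log2 fold change 0.19 ± 0.06 (SE), adjusted p = 0.0263). The call was lost when positives were named after thinning (0.07, adjusted p = 0.484) and without fed replicate 1, fed replicate 3 or either fasted replicate (adjusted p 0.0596 to 0.0918). Among ungated neurons alone it turned to -0.18 (adjusted p = 0.270). Prkcb (log2 fold change -0.11 ± 0.06 (SE), adjusted p = 0.191) and Prkci (log2 fold change -0.17 ± 0.10 (SE), adjusted p = 0.184) did not pass the test over all neurons, although Prkcb did without fed replicate 2 (-0.18, adjusted p = 0.0453) and without a filter on low counts (-0.14, adjusted p = 0.0411). In ungated neurons alone Prkcb was lower in the positive ones (-0.25 ± 0.07, SE, adjusted p = 0.00765). Prkcz was 217 ± 33.7 (SD, n = 5) and 214 ± 26.0 (SD, n = 5) in the respective groups (log2 fold change 0.02 ± 0.06 (SE), adjusted p = 0.854). Of the 7 members, 4 were called, Prkcq included, against 36.1% of all 12375 genes.

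**Figure D4:**
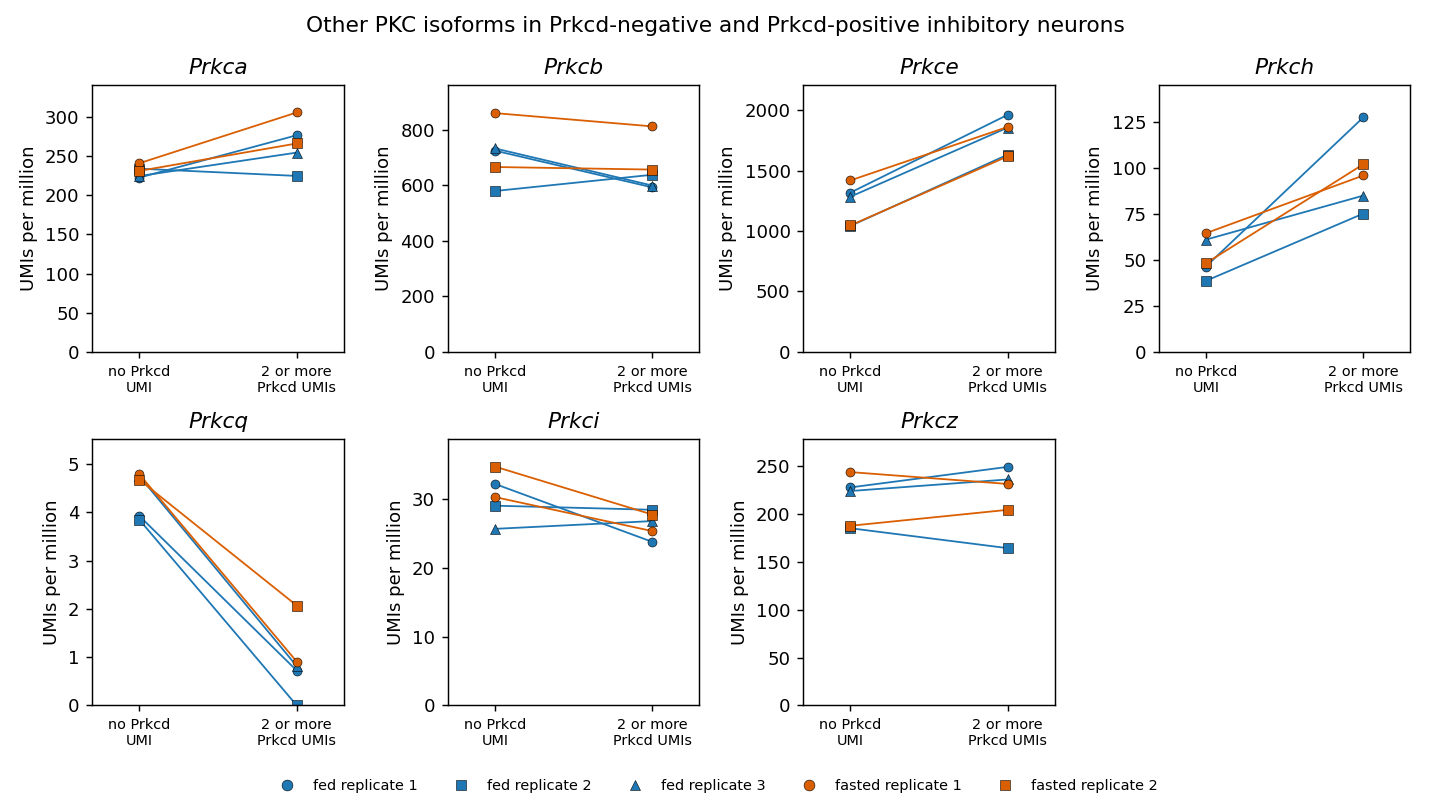
CPM (linear axes from 0, each panel with its own scale) of the other 7 PKC isoform genes in inhibitory neurons without a Prkcd UMI and with at least 2; each line joins the values of 1 library, blue for fed and orange for fasted. The lines of Prkce and Prkch rise in all 5 libraries, those of Prkcq fall from 3.84 to 4.78 without Prkcd to at most 2.07 with it, and those of Prkcb, Prkci and Prkcz go in both directions.

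A list of 62 genes of the PKC pathway, which holds phospholipase C enzymes that make diacylglycerol, diacylglycerol kinases that remove it, other diacylglycerol receptors and PKC substrates and scaffolds, was read beside the isoforms. It includes Prkd1, which also served above as a marker of the Calcrl class, and the list was chosen with earlier results of these data known, so it is not independent of these samples. In the Calcrl class 7 of the 52 genes tested were higher and 7 lower (26.9%, against 15.9% of all genes), with a median log2 fold change of -0.000283, against 0.02 over all genes. Protein kinase D1, Prkd1, a kinase activated by diacylglycerol-dependent PKC isoforms, was 396, 424 and 307 in the fed libraries and 523 and 364 in the fasted libraries (log2 fold change 2.04 ± 0.13, SE, adjusted p = 4.80e-18). Dgkg, a diacylglycerol kinase, was higher as well (1.21 ± 0.11, adjusted p = 1.30e-12), and Chn2, a diacylglycerol-binding Rac regulator, was lower (-1.20 ± 0.18, adjusted p = 1.01e-06). Prkd2 stayed at 0 to 3.61 CPM in Calcrl nuclei, so its passing of the filter on low counts may rest on other classes. Its fitted log2 fold change of -1.51 ± 0.48 (SE), or -1.23 without fed replicate 3, is given as a description, without a test. It remains among the 7 lower genes counted.

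In Dnah5 nuclei 12 list genes were higher and 7 lower of 52 (36.5%, against 17.2% of all genes), with a list median of 0.01, against 0.01 over all genes. Plcl1, a phospholipase C-like protein without known catalytic activity, led with 826 to 1418 CPM (1.61 ± 0.12, SE, adjusted p = 4.11e-15). Plcd1 had a fitted log2 fold change of 1.06 ± 0.32 (SE) at 4.78 to 10.9 CPM. Its passing of the filter on low counts may rest on this class. The fold is therefore a description, without a test, although Plcd1 is in the count of 12. It was not called without fed replicate 1 or fed replicate 3. The lowest were Dgkk (-1.65 ± 0.39) and Rasgrp2 (-1.41 ± 0.33, and -0.94 without fasted replicate 2). They stood at only 4.78 to 9.51 and 1.36 to 8.58 CPM, and their passing of the filter on low counts may rest on other classes. Their folds are therefore a description, without a test, although both are in the count of 7. In Foxp2 nuclei 5 rose and 8 fell (25.0%, against 16.7%), with a list median of -0.02, against -0.02 over all genes. Here Chn2 (1.42 ± 0.14, adjusted p = 4.58e-11) and Plcb4 (1.15 ± 0.15, adjusted p = 2.59e-08) were higher, and Prkd1 (-1.39 ± 0.21, adjusted p = 9.47e-07) and Dgkg (-1.13 ± 0.14, adjusted p = 2.04e-08) were lower. These last were the pair that was higher in the Calcrl class.

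Rarb nuclei had 11 list genes higher and 4 lower of 52 (28.8%, against 10.8% of all genes), with a list median of -0.01, against 0.01 over all genes. Prkd1 (1.64 ± 0.12, SE, adjusted p = 2.38e-15) led the higher genes, and Plcb4 (-1.46 ± 0.16, adjusted p = 5.23e-10) and Plcl1 (-1.09 ± 0.15, adjusted p = 3.20e-07) the lower. Rasgrp2, a Ca2+- and diacylglycerol-regulated exchange factor, had a fitted log2 fold change of 1.39 ± 0.18 (SE) at 19.0 to 30.8 CPM. Its passing of the filter on low counts may rest on this class. The fold is therefore a description, without a test, although Rasgrp2 is in the count of 11. Of the classes not named gene by gene, Pde1c had 15 of the 52 higher and 3 lower (34.6%, against 13.5% of all genes), Dlk1 5 and 12 (32.7%, against 9.71%), Sst 8 and 4 (23.1%, against 7.48%) and the ungated class 5 and 8 (25.0%, against 11.9%). Astrocytes had 17 higher and 23 lower (76.9%, against 59.4%), and oligodendrocytes 8 and 23 (59.6%, against 42.6%). In Prkcd-positive neurons 13 of 58 list genes were higher and 19 lower (55.2%, against 36.1% of all genes), with a list median of -0.08, against 0.01 over all genes. Rasgrp3 (2.30 ± 0.43) and Dgkg (1.27 ± 0.06, adjusted p = 9.19e-11) were the highest, and Gna14 (-2.47 ± 0.41) and Rasgrp2 (-1.92 ± 0.20) the lowest. Rasgrp3, Gna14 and Rasgrp2 stayed at or below 5.998 CPM in the positive neurons of every library. Their passing of the filter on low counts may rest on the neurons in which each was higher, so their folds are a description, without a test.

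As a description of the pattern across classes, each isoform's mean log2 level over the 10 classes was correlated with that of 8762 other genes at 20 or more CPM in at least 1 class. The 10 points share their libraries, and the values carry no test. They include astrocytes and oligodendrocytes, so a high r may rest mostly on glia. Prkce was 358 and 306 CPM in these glia and at least 1034 in the inhibitory classes. Prkcq was 195 in oligodendrocytes and at most 12.5 in the other classes. Likeness among neurons alone is not given. Prkcd was most like Epb41l4a (Pearson's r = 0.93), Sh3d21 (0.91) and Cpd (0.91). Prkch was most like Dpy19l3 (0.96), Ppp1r1b (0.92), which encodes the dopamine-regulated phosphatase inhibitor DARPP-32, and Stk32a (0.92). For Prkcq the nearest were Sptlc2 (0.97), Bicd2 and Klf13 (0.95 each), and for Prkcz Tpst1 and Abcg1 (0.99 each) and Mical3 (0.98). Prkce was nearest to Adarb1 and Eml4 (0.99 each) and Dmtn (0.99), and Prkcb to Trank1 (0.99), Mrtfa (0.98) and Rnf150 (0.97). The weakest best match was that of Prkca, to Mccc1 (0.90), Tlk1 (0.86) and Naa12 (0.85). Prkci was nearest to Prr16 (0.94), Col26a1 and Arfgef3 (0.93 each).

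Fasting was compared with feeding within 9 sums: all inhibitory neurons, the Pde1c, Rarb, Foxp2, Dnah5, Calcrl and ungated classes, astrocytes and oligodendrocytes. With 3 fed against 2 fasted libraries and no block, the quasi-likelihood test called 0 of the 59 pairs of a member and a sum, and 7 of these pairs had an unadjusted p under 0.05. They were 2 of 7 members in Calcrl (383 of 7267 genes), 1 of 7 in Dnah5 (475 of 7594) and 1 of 7 in Rarb (369 of 10092). The others were 1 of 8 in all inhibitory (708 of 13607) and in ungated neurons (633 of 12247), and 1 of 5 in astrocytes (402 of 6351). None was in Foxp2 (271 of 7705), Pde1c (134 of 5943) or oligodendrocytes (135 of 2080). DESeq2 called 0 and edgeR's likelihood ratio test 1. Calls were scarce over all genes too: 0.409% in astrocytes, 0.0395% in Dnah5, 0.026% in Foxp2, 0.0198% in Rarb and 0.00817% in ungated nuclei, and 0 in the other 4 sums, where 134 to 708 genes had an unadjusted p under 0.05. Members whose fed and fasted libraries did not overlap numbered 2 of 8 in all inhibitory neurons, as against 17.8% of all genes, and 1 of 8 in ungated neurons (17.7%). They numbered 2 of 5 in astrocytes (21.3%), 2 of 7 in Rarb (16.6%), 2 of 7 in Calcrl (18.7%), 1 of 7 in Dnah5 (21.2%), 1 of 6 in Foxp2 (18.3%), 0 of 6 in Pde1c (15.5%) and 0 of 5 in oligodendrocytes (22.8%).

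Prkcd over all inhibitory neurons was 107, 77.2 and 97.0 in the fed libraries and 77.003 and 63.6 in the fasted libraries. Both fasted libraries were below all fed libraries, though fasted replicate 1 and fed replicate 2 were nearly level (log2 fold change -0.43 ± 0.17 (SE), adjusted p = 0.845). In ungated neurons it was 90.4, 96.9 and 104.9 in the fed libraries and 74.1 and 62.9 in the fasted libraries, again with no overlap (log2 fold change -0.54 ± 0.15 (SE), adjusted p = 0.433). Fed and fasted libraries of the same replicate number, taken as the same preparation batch, were then paired through a replicate block. This leaves fed replicate 3 without weight in the fold, and both sums were called. The blocked log2 fold change was -0.40 ± 0.09 (SE, adjusted p = 0.0141) over all inhibitory neurons and -0.51 ± 0.11 (adjusted p = 0.000225) in ungated neurons. The block called 2.09% and 2.64% of all genes in these sums. The blocked fit compares only the batches of replicates 1 and 2, so each gene keeps little spread of its own. Its p-values therefore lean mostly on the spread that edgeR shares over genes. In summed nuclei, fewer neurons that express a gene and less RNA per neuron cannot be told apart.

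The classes in which Prkcd is highest were not called: Calcrl nuclei held 236, 242 and 363 in the fed and 251 and 223 in the fasted libraries (log2 fold change -0.26 ± 0.23 (SE), adjusted p = 0.989). This SE is too wide to tell the fold from no change or from the fold in ungated neurons. The Dnah5 class changed by -0.08 ± 0.19 (SE, adjusted p = 0.991). With the block these were -0.03 ± 0.22 and -0.18 ± 0.20 (adjusted p = 0.996 and 0.972). In Rarb nuclei, where Prkcd was low, fasted libraries were above fed ones (14.1 and 16.7 against 3.39 to 10.7 CPM). The fitted log2 fold change was 1.15 ± 0.43 (SE) without the block and 1.99 ± 0.50 with it. Both folds rest on 4, 6 and 30 Prkcd UMIs in the fed and 17 and 50 in the fasted libraries. The passing of the filter on low counts may rest on the libraries in which Prkcd was higher. Both folds are therefore a description, without a test, although the blocked fit counted this pair among its calls (0.946% of all genes). At equal depth, the share of Rarb nuclei with a Prkcd UMI was 2.27, 4.21 and 4.37% in the fed libraries. In the fasted libraries it was 3.38 and 2.72%, within the fed range, so this share did not show the rise. In Pde1c nuclei Prkcd was too low to enter the fit without the block, and the call in the blocked fit (log2 fold change -3.45, with 0.348% of all genes called) restates the 94.4 CPM of fed replicate 2 against at most 14.2 elsewhere, so nothing is read from it. The joint quasi-likelihood test of whether the fasting effect differs by class gave Prkcd an adjusted p of 0.476, and called 0 of 8 members and 0.0376% of all genes. The likelihood ratio form gave 0.00875 for Prkcd and called 0.901% of all genes, and without fed replicate 3 the quasi-likelihood value was 0.0113.

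Outside neurons, Prkca in astrocytes was 286, 287 and 195 in the fed libraries and 589.9 and 453 in the fasted libraries, so that both fasted libraries lay above all fed ones (log2 fold change 1.05 ± 0.27, SE, adjusted p = 0.145). The likelihood ratio test, which called 1.46% of all genes there, gave an adjusted p of 0.0438, and the fit without a filter on low counts gave 0.0165. With the replicate block the change was 0.83 ± 0.26 (SE, adjusted p = 0.236). In Calcrl neurons Prkca and Prkcb were also higher in both fasted libraries than in all fed ones, with log2 fold changes of 0.69 ± 0.21 and 0.61 ± 0.20 (SE; adjusted p = 0.714 and 0.757). Prkcb passed there only without fasted replicate 2 (0.92, adjusted p = 0.0305). No gene of the pathway list passed in any of the 9 sums. The smallest adjusted p among them was 0.260, for Nrgn in astrocytes, a neuronal calmodulin-binding PKC substrate, at 12.7, 22.7 and 52.1 in the fed and 75.4 and 96.5 in the fasted libraries. The next were Plch1 in astrocytes (log2 fold change -1.15, adjusted p = 0.282) and in ungated neurons (-0.63, adjusted p = 0.466), Plcd1 in all inhibitory neurons (0.88, adjusted p = 0.380) and Unc13a in the Dnah5 class (-0.68, adjusted p = 0.481).

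**Figure D5:**
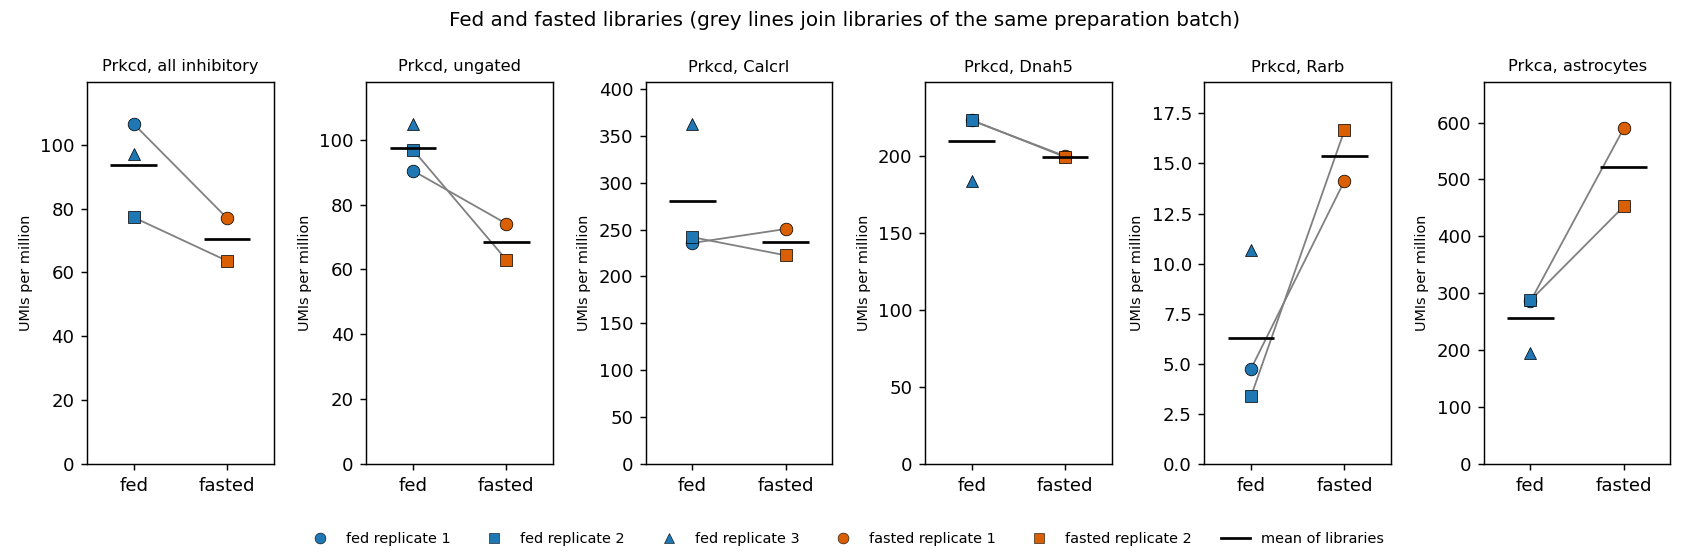
CPM (linear axes from 0, each panel with its own scale) of Prkcd in 5 sums of neurons and of Prkca in astrocytes, in fed and fasted libraries. Points are libraries, black bars group means, and grey lines join fed and fasted libraries of the same replicate number, taken as the same batch. Both fasted points lie below all fed points for Prkcd in all inhibitory and in ungated neurons and above them for Prkcd in Rarb nuclei and Prkca in astrocytes, while the groups overlap in the Calcrl and Dnah5 classes.

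The share of inhibitory neurons with a Prkcd UMI, at 4000 UMIs per nucleus, was 19.0, 12.5 and 16.3% in the fed libraries and 16.0 and 12.0% in the fasted libraries. The means were 15.9 ± 3.30% (SD, n = 3) and 14.0 ± 2.82% (SD, n = 2), a difference of -1.93 percentage points (exact permutation test, two-sided, p = 0.4), and the groups overlapped. With 3 libraries against 2 this exact test cannot go below p = 0.2. Each fasted library was below the fed library of the same replicate number.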

How the data were processed

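Single-nucleus RNA-seq libraries (Chromium 3′ v3.1) of pooled central amygdala tissue were aligned by the authors with reads in introns counted. The deposited values are raw UMI counts per gene and barcode. The submitters' notes name Cell Ranger 2.1.1, whereas the file headers name 5.0.0. From these counts, nuclei with 500 to 8000 genes and mitochondrial UMIs under 0.8% were kept, gated on raw marker UMIs, and summed per class and library where a library had at least 10 nuclei of the class. No doublet caller was run.

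Sums were tested with edgeR 4.0.16 in R 4.3.3 (quasi-likelihood test, TMM, filterByExpr) at an adjusted p of 0.05, and DESeq2 1.42.0 and edgeR's likelihood ratio test were alternatives. Other alternatives were library totals without TMM, no filter on low counts, stricter bounds on nuclei, doubled gates, fed libraries alone, Prkcd-positive neurons named after thinning or taken from ungated neurons alone, and the omission of each library. Scripts were tested on simulated data. Each library pooled 2 mice, so p-values measure the spread between these libraries, and exact intervals cover counting error only. edgeR moderates the spread of each gene toward that of other genes, and fits with the replicate block depend mostly on this shared spread. The SE of a log2 fold change is the size of the fold divided by the square root of the F statistic. It thus restates the quasi-likelihood test and is no separate estimate.

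Replicate numbers 1 and 2 were taken as the preparation batches that the study numbers 1 and 2, a match it does not state. Fed replicate 3 was placed in a batch of its own by elimination. The libraries were paired by these numbers. Fed and fasted deviations from their group means correlated at 0.375 for replicates 1 and 0.532 for replicates 2 over 12433 genes. With 2 fasted libraries the deviations mirror each other, so the opposite pairing gives -0.375 and -0.532 by construction. Replicates 1 were also the shallow libraries, so these correlations cannot tell batch from depth.

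The members, the gates and the pathway list were chosen with earlier results of these data known. All members are described. From the pathway list, up to 2 genes of the highest and 2 of the lowest log2 fold change among those called were named for the Calcrl, Dnah5, Foxp2 and Rarb classes and for Prkcd-positive neurons, and for fasting the 5 smallest adjusted p-values. Likeness used log2(CPM + 1), leaving out gate genes.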

Additional observations from a re-analysis of the deposited data

How the results depend on the processing

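The 38 calls by class became 40 with the likelihood ratio test, 38 with DESeq2, 36 with library totals alone, 39 without a filter and 33 in the fed libraries alone. With doubled gates 23 of 48 testable pairs in 6 classes were called, and with stricter bounds on nuclei 30 of 63, and both tested fewer classes. Without 1 library the count was 35 to 36. With doubled gates Prkcq in the Calcrl class turned to -0.91, Prkcd in astrocytes to -0.18 and Prkcd in ungated neurons to -0.14 on the log2 scale. The only inhibitory classes left to compare with were then Calcrl, Dnah5, Rarb and ungated, so these folds are not against the same mean as the main ones. The parts of the changed mean and of the changed gates were not tested. Library totals alone moved the median of all genes by -0.13 in the Pde1c class and 0.13 in oligodendrocytes. Of the 4 isoforms called in Prkcd-positive neurons, 2 of 7 tested were called once positives were named after thinning, and Prkca turned to -0.18 in ungated neurons alone. Shares of all genes called are not given for these alternatives. The counts therefore show how the calls depend on the setting and are no result about the members.

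For fasting, 0 calls became 1 with the likelihood ratio test, 2 without a filter, and 1 without fasted replicate 2, the range over libraries left out being 0 to 1. With the replicate block 4 of 62 pairs were called, all of them Prkcd. Of these, 1, in the Pde1c class, could not be tested without the block, and the pair in the Rarb class is a description only. The effect of fasting by class gave 1 call with the likelihood ratio test, 3 without a filter and 1 without fed replicate 3, the range being 0 to 1. Shares of all genes called are not given for the fits without a filter or without 1 library, so nothing about the members is read from these counts. The difference in the share of neurons with a Prkcd UMI was -2.46 at 2000 UMIs and -2.83 without thinning, and ran from -3.92 to 0.0624 percentage points without 1 library, the last being without fasted replicate 2.

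Depth limits the scarce isoforms and rare classes most. Prkcq in neurons and Prkcd in the Foxp2, Rarb and Sst classes rest on few UMIs, and classes with fewer than 10 nuclei in several libraries were not tested.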
